A study of Mus musculus with 9 samples.

Results

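The genes described here encode collagens, laminins, nidogens, lysyl oxidases and a few large glycoproteins of the extracellular matrix. They were read as RNA in mouse embryonic stem cell cultures. Members were chosen by symbol alone: every protein-coding gene named as a collagen chain, a laminin α, β or γ chain, Lox or a Lox-like enzyme, together with Nid1, Nid2, Fn1, Sparc, Hspg2, Agrn, Fbn1, Fbn2 and Vcan. The rule found 69 genes among the 37990 listed, namely 44 collagen chains, 11 laminin chains, 5 lysyl oxidases and 9 others, and the 54 with at least 60 reads over the 9 libraries are described (32, 9, 4 and 9 of these classes). Of those 54, 52 had enough reads to be tested (filterByExpr in edgeR), and Col14a1 and Col4a5 had not. The 15 genes below the threshold held between 1 and 58 reads each. Just outside it lay Lama2 with 30 reads, Col12a1 with 36 and Col3a1 with 58, and just inside it Col14a1 and Col4a5 with 69 each and Col6a1 with 72.

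The study made stable knockdowns in E14 mouse embryonic stem cells, a feeder-independent line kept here on gelatin with serum and LIF, and read total RNA by stranded single-end sequencing. There were 3 libraries with a short hairpin RNA (shRNA) against Fam60a, 3 with one against Sin3a and 3 with a scrambled hairpin, which was taken as the group of the libraries whose titles name neither target. All 3 groups had been transduced with a lentiviral pLKO.1 vector and selected with puromycin, so the controls share that treatment, and a knockdown lowers its target without removing it. Sin3a scaffolds a corepressor complex that carries histone deacetylases. Fam60a, listed under its newer symbol Sinhcaf, belongs to a form of that complex.

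Most matrix genes of an early embryo belong to basement membranes, thin sheets in which laminin trimers of an α, a β and a γ chain polymerise under the cells and type IV collagen forms a second network. Nidogens and the heparan sulfate proteoglycans perlecan (Hspg2) and agrin (Agrn) tie both networks together, and Sparc is a calcium-binding protein that accompanies type IV collagen. In the mouse blastocyst and in stem cell cultures the primitive and parietal endoderm are the classic producers of laminin-111 and type IV collagen. Fibrillar collagens (types I, II, III, V and XI), fibrillins and fibronectin are better known from connective tissue, where lysyl oxidases oxidise lysines of collagen and elastin so that fibres become cross-linked.

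The libraries held 5511453 to 7674887 counted reads, except for Sin3a knockdown replicate 3 with 2607872. Sinhcaf had 5.59, 6.54 and 5.06 CPM (counts scaled to library size, with TMM factors) in the 3 Fam60a knockdown libraries, against 13.4, 14 and 13.1 CPM in the controls, and fell by 1.23 ± 0.23 on the log2 scale (SE; edgeR, adjusted p = 0.028). Sin3a had 227, 216 and 207 CPM in the Fam60a knockdown, 131, 136 and 110.5 CPM in the Sin3a knockdown and 311, 281 and 268 CPM in the controls, and fell by 1.19 ± 0.11 in its own knockdown (adjusted p = 0.00149). The defining stem cell factor Pou5f1 had 122 to 141 CPM in the Fam60a knockdown, 131 to 316 CPM in the Sin3a knockdown and 133 to 141 CPM in the controls. With all libraries, 0 of 12 stem cell markers were called in each of the 3 comparisons by edgeR and by DESeq2 (1, 0 and 2 at an unadjusted p under 0.05 in edgeR for the Fam60a knockdown against control, the Sin3a knockdown against control and the Fam60a against the Sin3a knockdown). Without Sin3a knockdown replicate 3, edgeR called Nanog lower in the Fam60a knockdown than in the controls (16.9% of all genes were called). It also called Klf4 lower in the Fam60a than in the Sin3a knockdown (14.7% of all genes).

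Sin3a knockdown replicate 3 stood apart for the collagen chains among the matrix genes in particular. Of the 52 members tested, 32 (61.5%) were more than 2-fold higher in it than in both other Sin3a knockdown libraries, against 11.8% of all 14465 genes tested, and only Loxl4 and Vcan (3.85%, against 18.3%) were more than 2-fold lower. The 54 members summed to 15827 CPM in that library, 7855 and 9036 CPM in replicates 1 and 2 of the same knockdown, 6853 to 8600 CPM in the Fam60a knockdown and 5724 to 7799 CPM in the controls. Of the 30 collagen chains tested, only Col18a1 and Col6a2 were not among the higher members. Outside the collagens, the higher members were Lamb1, Lamb2, Lamb3 and Loxl3 alone. The higher members had a median exon GC content of 57.3%, the other members 53.3%. Over all genes tested, the same medians were 55.8% and 49.4%. This library is also the shallowest. The part of GC content and depth in the difference was not tested. For the members described below whose calls this library changed, values without it are also given.

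By level per kilobase of exon, the members fell into a high basement membrane group and a long low tail. In the controls, the highest were the laminin γ1 chain Lamc1 with 78.4 CPM per kb, the nidogen Nid2 with 76, Col4a1 with 61.5, Lama1 with 61, the nidogen Nid1 with 58.1, the basement membrane collagen Col18a1 with 57.1, Hspg2 with 57 and Sparc with 56.3. Fn1 (53.7), Col4a2 (49.9), Lama5 (48.6), Agrn (48.4) and Lamb1 (34.9) came next. The lowest of the 54 had 0.112 CPM per kb. Together, 12 basement membrane genes (the 8 named first, with Col4a2, Lama5, Agrn and Lamb1) held 79.1 to 84.5% of all member reads in the Fam60a knockdown, 81.8 to 84.1% in the Sin3a knockdown and 76.7 to 81.6% in the controls. Duplicate reads had been removed before counting, which caps the count of an abundant gene. The fullest members reached 0.662 (Lamc1) and 0.651 (Col4a1) reads per exon base, against at most 0.944 for any gene, so differences between the highest members and between groups for them may be compressed.

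**Figure D1:**
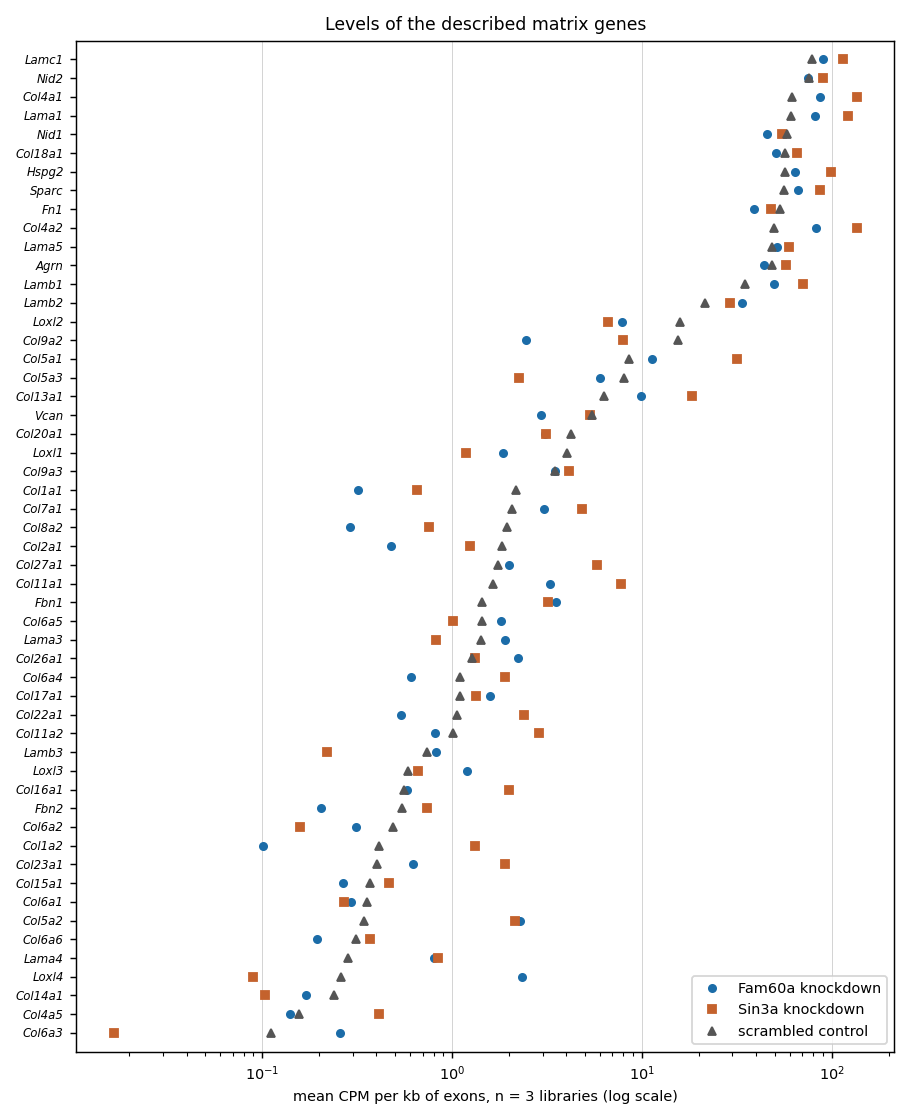
Mean level of the matrix genes reported here in CPM per kb of exons on a log axis, 1 marker per group (Fam60a knockdown, Sin3a knockdown, scrambled control; n = 3 libraries each). Basement membrane genes occupy the top, from 34.9 CPM per kb for Lamb1 to 78.4 for Lamc1 in the controls, with Fn1 among them, and 21 of the 32 collagen chains lie below 2.

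Few members passed the test in any comparison. In the Fam60a knockdown against the scrambled control, Loxl4 rose and was the only call among the 52 members (edgeR, Benjamini-Hochberg adjusted p under 0.05 over all genes), against 2.92% of all genes tested. In the Sin3a knockdown against the control, the lysyl oxidases Loxl1 and Loxl2 fell and Fbn1 and Lama4 rose, 4 calls in all, against 10.2% of all genes. Between the knockdowns, Loxl4 and Col6a3 were higher in the Fam60a knockdown, 2 calls, against 3.06% of all genes. In this fit each share of members called (1, 4 and 2 of 52) was near or below that background. In other fits, given below, member shares were above those of all genes. These were the fits with the replicate number as a block, with DESeq2 and without Sin3a knockdown replicate 3. At an unadjusted p under 0.05 the counts were 11, 20 and 12 members, which is 21.2%, 38.5% and 23.1% of them, against 15.7%, 25.9% and 18.1% of all genes.

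The median member differed little in the Fam60a knockdown. The median log2 difference over the members was 0.12 for the Fam60a knockdown against control, 0.24 for the Sin3a knockdown against control and -0.38 for the Fam60a against the Sin3a knockdown, beside -0.02, -0.01 and 0.01 over all genes. Without Sin3a knockdown replicate 3 these medians were 0.10, -0.42 and 0.40, so the sign of both medians that use the Sin3a knockdown turned on that library.

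The same library decided the counts. Without it, 12 members (22.6%, against 16.9% of all genes) were called in the Fam60a knockdown against control, 5 higher and 7 lower. In the Sin3a knockdown against control 15 were called (28.3%, against 24.5%), 3 higher and 12 lower. Between the knockdowns 14 were called (26.4%, against 14.7%), 12 higher and 2 lower in the Fam60a knockdown. With all 9 libraries and the replicate number as a block, 4, 13 and 4 members were called. These were 7.69%, 25% and 7.69% of the members, against 6.13%, 15% and 4.65% of all genes. Members called only in such fits are named below after their values were seen.

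**Figure D2:**
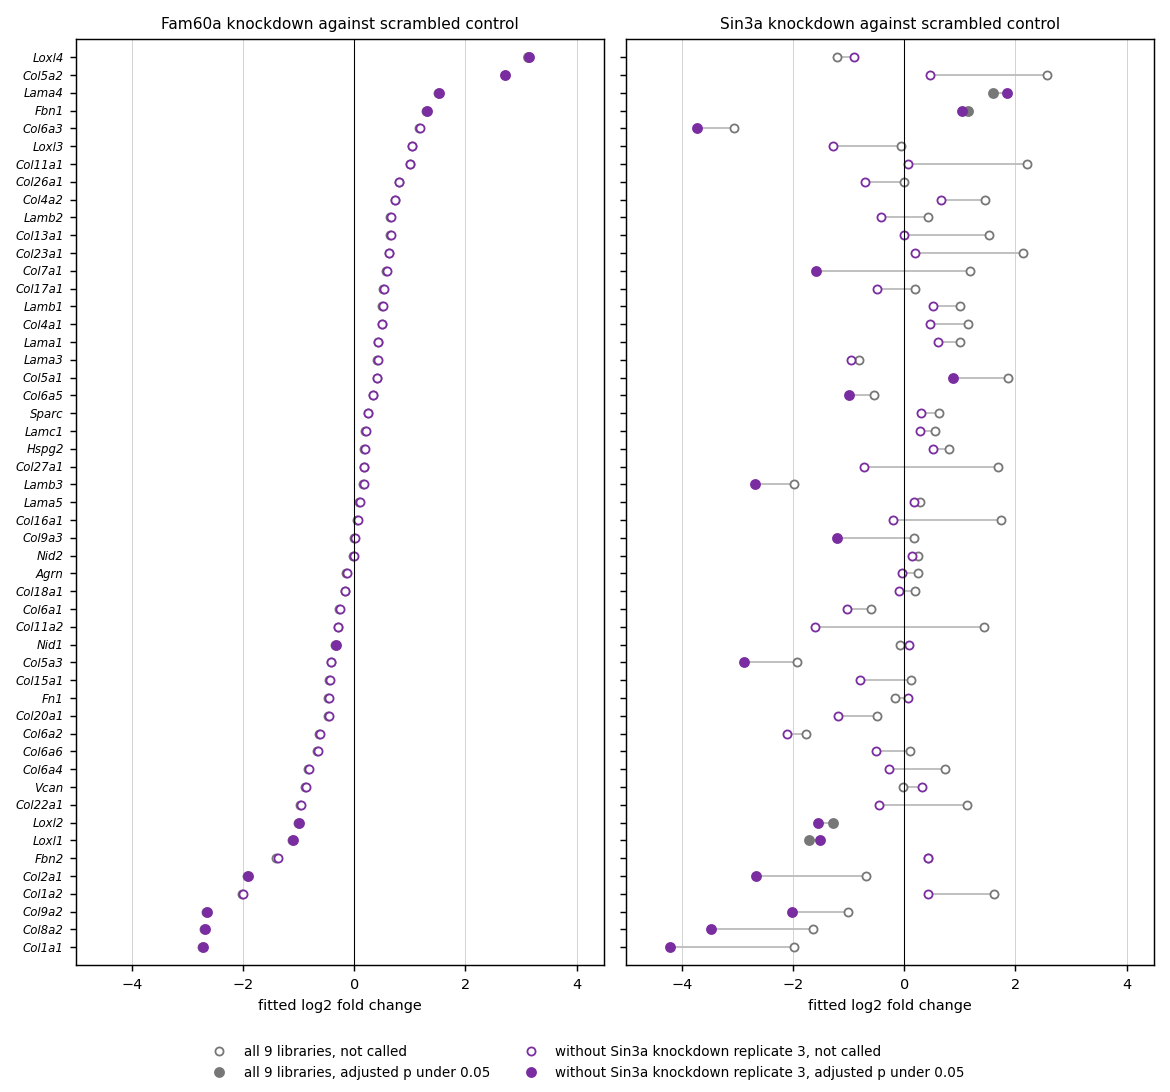
Fitted log2 fold change of the tested members reported here in the Fam60a knockdown against control (left) and in the Sin3a knockdown against control (right), with all 9 libraries (grey) and without Sin3a knockdown replicate 3 (purple); filled circles mark adjusted p under 0.05. In the right panel most purple circles lie left of their grey partners, as the medians of 0.24 with that library and -0.42 without it show.

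Of the 4 lysyl oxidases tested, Loxl4, Loxl1 and Loxl2 were each called in at least 1 comparison. Loxl4, a lysyl oxidase-like enzyme with scavenger receptor domains (ENSMUSG00000025185, chr19:42593982-42612813, minus strand, GRCm38), had 8.01, 13.6 and 7.91 CPM in the Fam60a knockdown, 0.762, 0.371 and 0 CPM in the Sin3a knockdown and 0.815, 1.59 and 0.894 CPM in the controls. All 3 Fam60a knockdown libraries lay above all 6 others, and every Sin3a knockdown library lay below every control. It rose by 3.13 ± 0.49 (log2, SE; edgeR, adjusted p = 0.0153) against the controls and was 4.35 ± 0.57 higher than in the Sin3a knockdown (adjusted p = 0.00972). In reads, it held 209 in the Fam60a knockdown, 7 in the Sin3a knockdown and 22 in the controls. The 0 reads of Sin3a knockdown replicate 3 allow up to 1.22 CPM. The Sin3a knockdown did not pass against the controls (edgeR, adjusted p = 0.281). The call in the Fam60a knockdown against control was lost in 5 of the 9 fits that left out 1 library (Fam60a knockdown replicates 1 and 2 and each control; highest adjusted p = 0.0942, edgeR), and was kept in the other 4.

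The promoter window of Loxl4 is shown because this gene is the only member called in the Fam60a knockdown. Sequences come from RefSeq on GRCm38.p6, run 5′ to 3′ on the strand of the gene, and span 250 bases before the annotated start and 50 bases from it on. Capitals mark 3 promoter motifs on either strand. The GC box, bound by Sp1-type factors, was searched as GGGCGG. The CCAAT box, bound by NF-Y, was searched as the letters of its name. The TATA box was searched as TATAAA. This one covers chr19:42612757-42613056 on the minus strand, is 75% G and C, and holds 3 GC boxes and neither other motif.
Loxl4: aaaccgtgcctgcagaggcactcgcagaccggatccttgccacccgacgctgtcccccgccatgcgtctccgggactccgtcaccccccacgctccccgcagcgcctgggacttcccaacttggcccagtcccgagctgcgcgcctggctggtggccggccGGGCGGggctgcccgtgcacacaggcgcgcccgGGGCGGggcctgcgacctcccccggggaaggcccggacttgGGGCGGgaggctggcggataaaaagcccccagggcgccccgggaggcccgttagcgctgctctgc

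Loxl1, which acts on elastic fibres, had 6.5, 7.19 and 4.74 CPM in the Fam60a knockdown, 4.73, 4.64 and 2.44 CPM in the Sin3a knockdown and 12.4, 15.8 and 11.9 CPM in the controls. All 6 knockdown libraries lay below all 3 controls. It fell by 1.71 ± 0.32 in the Sin3a knockdown (log2; edgeR, adjusted p = 0.0121), a call that was lost only without control replicate 2 among the 9 single libraries (adjusted p = 0.0549). In the Fam60a knockdown the difference was -1.12 ± 0.3 and did not pass (edgeR, adjusted p = 0.089). With the replicate block it was -1.13 ± 0.22 and passed (adjusted p = 0.0329), as it did without Sin3a knockdown replicate 3 (-1.1 ± 0.23, adjusted p = 0.0123).

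Loxl2, an enzyme known for cross-linking type IV collagen, had 46.2, 51.1 and 30.2 CPM in the Fam60a knockdown, 30, 28.6 and 48.3 CPM in the Sin3a knockdown and 80.5, 103 and 73.5 CPM in the controls. Again neither knockdown overlapped the controls. It fell by 1.28 ± 0.27 in the Sin3a knockdown (edgeR, adjusted p = 0.0204). That call was lost without Sin3a knockdown replicate 1 or 2 or control replicate 1 or 2, with an adjusted p of up to 0.102. In the Fam60a knockdown the difference of -1.01 ± 0.27 did not pass (adjusted p = 0.0851) and passed without Sin3a knockdown replicate 3 (-1.0 ± 0.19, adjusted p = 0.0105).

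The remaining family members were low. Loxl3 had 3.63, 8.21 and 4.74 CPM in the Fam60a knockdown, 0.61, 1.67 and 6.91 CPM in the Sin3a knockdown and 2.28, 4.34 and 1.49 CPM in the controls. It passed in none of the 3 comparisons (edgeR, adjusted p = 0.619, 0.975 and 0.485 for the Fam60a knockdown against control, the Sin3a knockdown against control and the Fam60a against the Sin3a knockdown). It was 2.32 ± 0.63 higher in the Fam60a than in the Sin3a knockdown without Sin3a knockdown replicate 3 (0.0393). The founding enzyme Lox held 9 reads over all 9 libraries and fell below the read threshold.

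**Figure D3:**
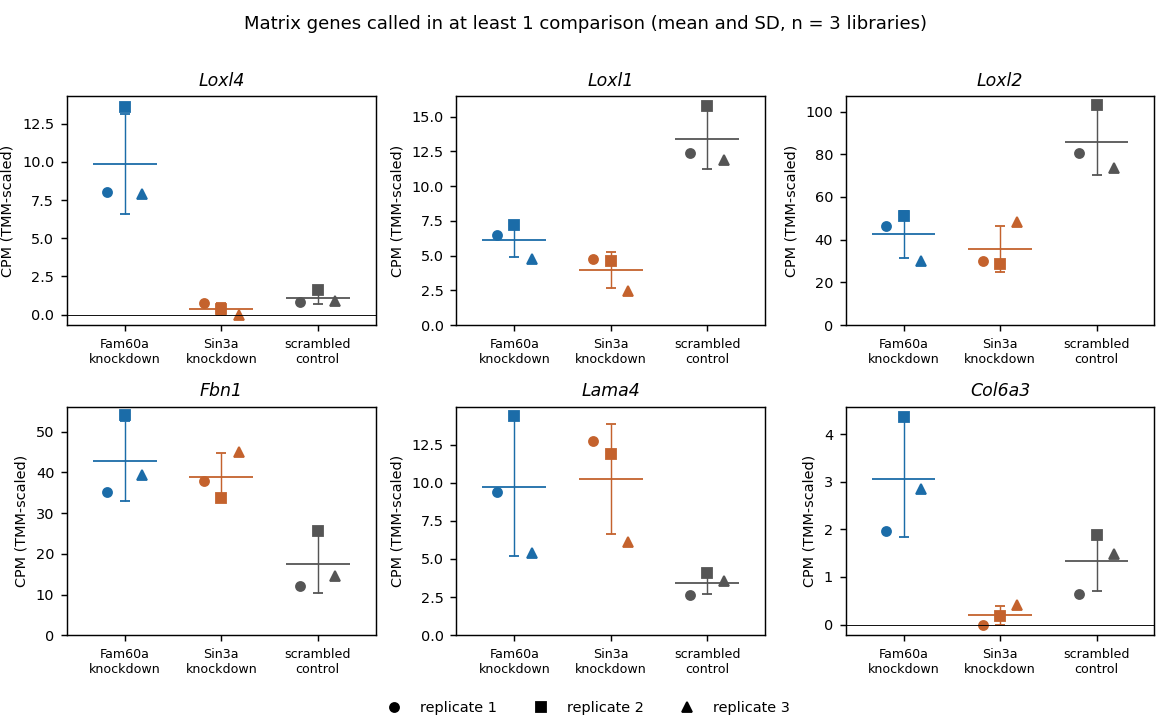
CPM in each library (points; circle, square and triangle for replicates 1, 2 and 3), with mean and SD (n = 3 libraries per group), for the 6 members called in at least 1 comparison. Loxl4 is highest in the 3 Fam60a knockdown libraries (7.91 to 13.6 CPM), and Loxl1 and Loxl2 are lower in all 6 knockdown libraries than in the controls.

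The type IV collagen of these cells was the α1 and α2 form. Col4a1 (ENSMUSG00000031502, chr8:11198423-11312826, minus strand, GRCm38) and Col4a2 (ENSMUSG00000031503, chr8:11312805-11449287, plus strand) held 34371 and 28203 reads over the 9 libraries. The other chains, which form type IV trimers of mature kidney, lens and other basement membranes, held 69 (Col4a5), 9 (Col4a6), 3 (Col4a4) and 1 (Col4a3). The α1 and α2 genes are a textbook head-to-head pair: their annotated starts lie 21 bp apart on opposite strands, and the windows below, chr8:11312777-11313076 on the minus strand for Col4a1 and chr8:11312555-11312854 on the plus strand for Col4a2, share 78 bp. They are shown because the levels of both genes, given next, put the 9 libraries in the same order; capitals mark the same motifs as above.
Col4a1: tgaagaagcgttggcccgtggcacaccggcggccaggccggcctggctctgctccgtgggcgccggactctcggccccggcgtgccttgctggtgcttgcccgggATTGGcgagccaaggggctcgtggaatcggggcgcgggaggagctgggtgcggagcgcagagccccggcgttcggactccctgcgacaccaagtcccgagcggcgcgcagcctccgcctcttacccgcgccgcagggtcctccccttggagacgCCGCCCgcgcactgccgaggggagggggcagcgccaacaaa
Col4a2: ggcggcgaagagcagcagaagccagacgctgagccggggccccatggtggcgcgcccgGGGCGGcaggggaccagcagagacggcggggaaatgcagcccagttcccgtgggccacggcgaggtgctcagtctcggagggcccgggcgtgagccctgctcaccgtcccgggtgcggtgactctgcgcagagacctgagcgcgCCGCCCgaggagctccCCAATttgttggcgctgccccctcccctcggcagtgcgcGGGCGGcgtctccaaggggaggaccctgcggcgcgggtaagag

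The Col4a1 window is 74% G and C with 1 GC box and 1 CCAAT box, and the Col4a2 window 73.7% with 3 GC boxes and 1 CCAAT box. Motifs in the shared 78 bp appear in both. Windows were matched for 36 of the 54 members, with 1 window counted per member. The background counts every window, more than 1 for some genes, and was not filtered by reads. A GC box was present in 75% of the member windows and in 35.7% of all 32851 windows of the same length, a CCAAT box in 38.9% and 37.4%, and a TATA box in 8.33% and 13.6%. The member windows were also richer in G and C (median 62%, against 52.7% of all windows) and in CpG (median 15, against 7 per window). The part of base composition in the GC box share was not tested. The members without a matched window included Col14a1, Col1a1, Col22a1, Col26a1, Col2a1, Col5a2, Col9a3, Fbn2, Fn1, Lama1, Lama3, Lama4, Lamc1, Loxl1, Loxl2, Loxl3 and Nid2.

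Col4a1 had 592, 577 and 768 CPM in the Fam60a knockdown, 625, 645 and 1779 CPM in the Sin3a knockdown and 332, 394 and 652 CPM in the controls. For Col4a2 the values were 486, 485 and 676 CPM in the Fam60a knockdown, 522, 524 and 1659.8 CPM in the Sin3a knockdown and 193, 260.5 and 538 CPM in the controls. In every group the library of replicate 3 was the highest for both genes, and control replicate 3 lay above replicates 1 and 2 of both knockdowns. In edgeR without the block, neither gene passed in either knockdown against control. Col4a1 differed by 0.49 ± 0.41 in the Fam60a knockdown (log2, edgeR adjusted p = 0.722) and 1.14 ± 0.42 in the Sin3a knockdown (0.123), and Col4a2 by 0.73 ± 0.51 (0.613) and 1.45 ± 0.52 (0.114). With the replicate block both rose in the Sin3a knockdown, Col4a1 by 1.05 ± 0.22 (edgeR, adjusted p = 0.0255) and Col4a2 by 1.37 ± 0.25 (0.0159), and not in the Fam60a knockdown (0.216 and 0.0935). DESeq2 on all libraries called both higher in the Sin3a knockdown. The GC correction with the block called both in each knockdown against control. The ratio of Col4a2 to Col4a1 per kb was 0.925, 0.948 and 0.993 for Fam60a knockdown libraries, 0.941, 0.916 and 1.05 for Sin3a knockdown libraries, against 0.655, 0.745 and 0.93 in the controls. By these counts the ratio was near 1 in the knockdowns and in control replicate 3. Reads per exon base of Col4a1 and Col4a2 were 0.273 and 0.179 in control replicate 1 and 0.366 and 0.272 in control replicate 2. In all other libraries they were 0.427 to 0.651, where duplicate removal may compress the counts more. The part of duplicate removal in the ratio was not tested.

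Lama1, the α chain of laminin-111 (ENSMUSG00000032796, chr17:67697259-67822647, plus strand), had 633, 752 and 987 CPM in the Fam60a knockdown, 862, 929 and 1766 CPM in the Sin3a knockdown and 409.5, 600.0 and 762 CPM in the controls. All 3 Sin3a knockdown libraries lay above all controls, and the Fam60a knockdown overlapped the controls. The differences of 0.42 ± 0.32 (edgeR, adjusted p = 0.668) in the Fam60a knockdown, and of 1.0 ± 0.32 (0.0854) in the Sin3a knockdown, did not pass. Lama1, with the replicate block, rose by 0.98 ± 0.14 in the Sin3a knockdown (edgeR, adjusted p = 0.00854). DESeq2 and edgeR with the GC correction also called Lama1 there. The GC correction with the block called Lama1 and Lamb1 in both knockdowns against control. The partner chain of Lama1, Lamb1, had 418, 432 and 619.8 CPM in the Fam60a knockdown, 496, 499 and 1102 CPM in the Sin3a knockdown and 241, 321 and 477 CPM in the controls. In edgeR on all 9 libraries it passed in the Sin3a knockdown with the block (0.97 ± 0.15, adjusted p = 0.0112) and not without it (1.01 ± 0.36, 0.114), and DESeq2 called it there. Lamc1, the γ1 chain shared by most laminins, had 676, 692 and 866 CPM in the Fam60a knockdown, 747, 828 and 1287 CPM in the Sin3a knockdown and 575, 681 and 688 CPM in the controls. On all 9 libraries it passed in the Sin3a knockdown with the block (0.52 ± 0.14; edgeR, adjusted p = 0.0491) and not without it (0.127).

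**Figure D4:**
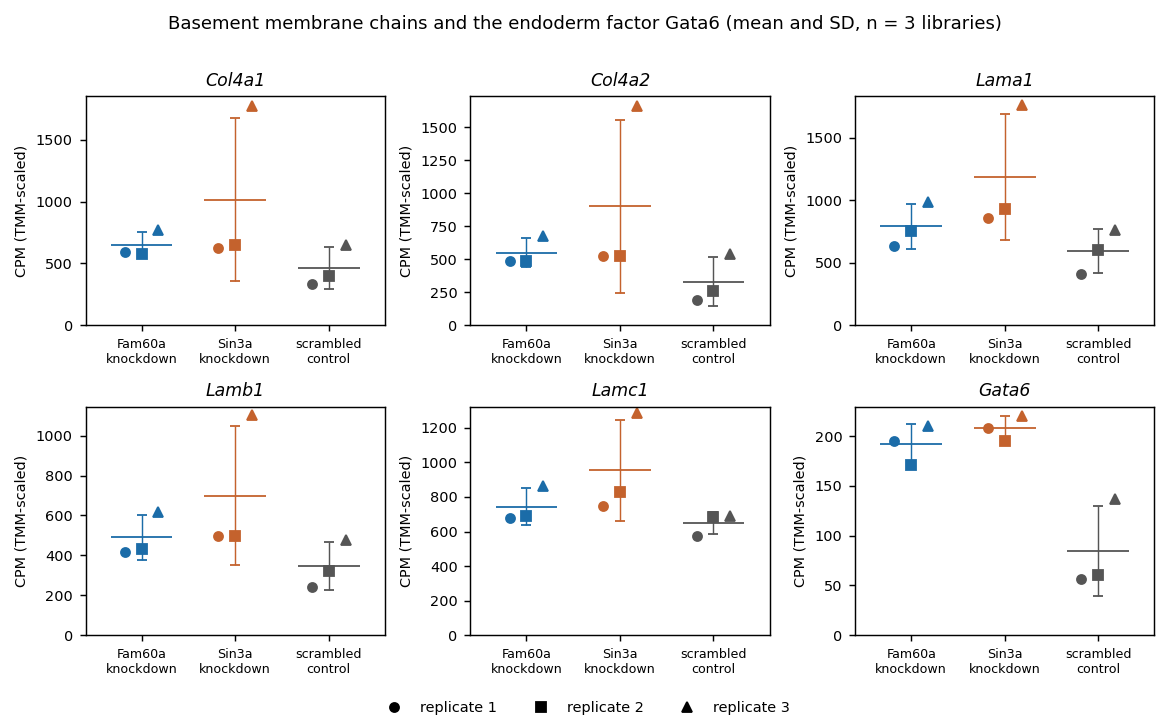
CPM in each library (circle, square and triangle for replicates 1, 2 and 3), with mean and SD (n = 3 libraries per group), for 5 basement membrane chains and Gata6. The replicate 3 library is the highest of its group in every panel, and Sin3a knockdown replicate 3 reaches 1779 CPM for Col4a1.

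Replicate 3 was the highest library of all 3 groups for 13 of the 54 members (24.1%, against 11.5% of all genes tested), among them Col4a1, Col4a2, Lama1, Lamb1, Lamc1 and Sparc. Of 21 tested markers of primitive and parietal endoderm, 13 (61.9%) had the same order, Gata6, Gata4, Sox17, Sox7 and Foxa2 among them. Dab2 and Pdgfra did not, since Sin3a knockdown replicate 1 was their highest library in that group. The 23 such genes that encode no matrix protein in the list summed to 1910, 1844 and 3197 CPM in the Fam60a knockdown, 2418, 2090 and 3299 CPM in the Sin3a knockdown and 1003, 1202 and 2769 CPM in the controls. The endoderm factor Gata6 had 196, 171 and 211 CPM in the Fam60a knockdown, 208, 195 and 221 CPM in the Sin3a knockdown and 57, 61 and 137 CPM in the controls. Sox17, another such factor, had 86.1, 66.2 and 116 CPM in the Fam60a knockdown, 88.7, 63.3 and 186 CPM in the Sin3a knockdown and 19.2, 21.1 and 73.9 CPM in the controls. Of 21 tested endoderm genes, 0 were called in the Fam60a knockdown by edgeR (3 at an unadjusted p under 0.05, and 2 called by DESeq2) and 1, Gata6, in the Sin3a knockdown (1.29 ± 0.3; edgeR, adjusted p = 0.029); with the replicate block 5 and 10 rose and none fell. Of all genes, edgeR called 2.92% in the Fam60a and 10.2% in the Sin3a knockdown without the block, and 6.13% and 15% with it. In bulk RNA, more cells of the endoderm type and more RNA per cell cannot be told apart, and the part of the endoderm genes in the matrix differences was not tested.

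A setting added after the data were seen left out the replicate 3 libraries of all groups. It called 18 members in the Fam60a knockdown against control (34%, against 16.9% of all genes). In the Sin3a knockdown against control it called 20 (37.7%, against 30.4%), and between the knockdowns 13 (24.5%, against 19.2%). In this setting Col4a1, Col4a2 and Lamb1 rose in both knockdowns, Col4a1 by 0.71 ± 0.092 in the Fam60a knockdown (log2; edgeR, adjusted p = 0.00118) and 0.83 ± 0.092 in the Sin3a knockdown (0.00031), and Col4a2 by 1.12 ± 0.12 (0.000708) and 1.23 ± 0.12 (0.000246). Lama1 rose by 0.85 ± 0.18 in the Sin3a knockdown (0.014), and its 0.48 ± 0.18 in the Fam60a knockdown did not pass (0.132). In the Sin3a knockdown Lamc1 rose by 0.35 ± 0.098 (0.0264) and Sparc by 0.45 ± 0.09 (0.00577), and Col6a2 fell (-2.36 ± 0.68, 0.0328). In the Fam60a knockdown Col11a1, Col13a1, Col26a1 and Col27a1 rose, by 0.63 to 1.04, and Col22a1 fell by 0.85 ± 0.22 (0.026).

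Among the other laminin chains, Lama4, an α chain best known from vessel and muscle basement membranes, was the one called with all libraries. It had 9.37, 14.4 and 5.38 CPM in the Fam60a knockdown, 12.7, 11.9 and 6.09 CPM in the Sin3a knockdown and 2.61, 4.05 and 3.58 CPM in the controls. All 6 knockdown libraries lay above all controls. It rose by 1.6 ± 0.43 in the Sin3a knockdown (edgeR, adjusted p = 0.0488), and its 1.5 ± 0.43 in the Fam60a knockdown did not pass (0.105). The call held in 3 of the 9 fits without 1 library. It was lost without Fam60a knockdown replicate 1, Sin3a knockdown replicate 1 or 2, or any control (highest adjusted p = 0.152), and without Sin3a knockdown replicate 3 Lama4 also rose in the Fam60a knockdown (1.52 ± 0.36, adjusted p = 0.022). Lama5, the broadly expressed α chain, had 588 ± 112 CPM in the Fam60a knockdown, 678 ± 141 CPM in the Sin3a knockdown and 553 ± 146 CPM in the controls (SD, n = 3 each). It was not called on all 9 libraries (edgeR without the block, adjusted p = 0.974, 0.46 and 0.667). Lamb2 had 160.4, 219 and 238 CPM in the Fam60a knockdown, 91.2, 105 and 335 CPM in the Sin3a knockdown and 93.5, 151 and 149 CPM in the controls. Between the knockdowns it was 0.23 ± 0.46 (adjusted p = 0.816), and without Sin3a knockdown replicate 3 it was higher in the Fam60a knockdown by 1.08 ± 0.24 (0.0226).

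Lama3 and Lamb3 encode chains of laminin-332, the laminin that anchors epithelia through hemidesmosomes. Lamb3 had 4.98, 7.83 and 3.64 CPM in the Fam60a knockdown, 0.762, 0.743 and 2.84 CPM in the Sin3a knockdown and 3.58, 5.49 and 5.66 CPM in the controls. Every Sin3a knockdown library lay below every other library. In the Sin3a knockdown its -1.98 ± 0.56 just missed the threshold (edgeR, adjusted p = 0.0548), and without replicate 3 it fell by 2.68 ± 0.49 there (0.0056) and was 2.85 ± 0.49 higher in the Fam60a than in the Sin3a knockdown (0.00727). Lama3 had 14.5, 19 and 27.8 CPM in the Fam60a knockdown, 6.86, 9.1 and 10.6 CPM in the Sin3a knockdown and 9.94, 14 and 22.1 CPM in the controls. Blocked by replicate number, it fell by 0.73 ± 0.19 in the Sin3a knockdown (0.0454) and was 1.16 ± 0.19 higher in the Fam60a than in the Sin3a knockdown (0.0245), where it also passed without Sin3a knockdown replicate 3 (1.37 ± 0.4, 0.0492).

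The linkers of the basement membrane did not pass against the controls in the fit without the replicate block. Nid1 had 303, 354 and 298 CPM in the Fam60a knockdown, 398, 454 and 294 CPM in the Sin3a knockdown and 389.8, 436 and 383 CPM in the controls. Nid2 had 362, 401 and 403 CPM in the Fam60a knockdown, 399, 468 and 525 CPM in the Sin3a knockdown and 377, 421 and 381 CPM in the controls. All Fam60a knockdown libraries lay below all controls for Nid1, yet its -0.34 ± 0.16 did not pass (edgeR, adjusted p = 0.353) until Sin3a knockdown replicate 3 was left out (-0.33 ± 0.085, 0.0293). In that fit it was also lower in the Fam60a than in the Sin3a knockdown (-0.41 ± 0.094, 0.0211). Nid2 differed by -0.02 ± 0.12 in the Fam60a knockdown, and by 0.24 ± 0.12 in the Sin3a knockdown (0.994 and 0.254). Hspg2, the core protein of perlecan, had 693, 974 and 1095 CPM in the Fam60a knockdown, 1054, 1276 and 1934 CPM in the Sin3a knockdown and 562, 1003 and 879.9 CPM in the controls. All Sin3a knockdown libraries lay above all controls, and it rose by 0.8 ± 0.15 in that knockdown with the replicate block (0.0185) and did not pass without it (0.115). Sparc had 249, 221 and 285 CPM in the Fam60a knockdown, 249, 276 and 459.8 CPM in the Sin3a knockdown and 199.9, 191 and 249.7 CPM in the controls. It rose by 0.59 ± 0.14 in the Sin3a knockdown with the block (0.0373) and did not pass on all libraries without it (0.127). Agrn averaged 408 ± 56.5 CPM in the Fam60a knockdown, 531 ± 174 CPM in the Sin3a knockdown and 449 ± 77.5 CPM in the controls (SD, n = 3 each). It was not called on all 9 libraries (edgeR without the block, adjusted p = 0.939, 0.554 and 0.42).

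Fibronectin (Fn1), the adhesive glycoprotein bound by several integrins, had 404, 572 and 386 CPM in the Fam60a knockdown, 570.2, 744 and 356 CPM in the Sin3a knockdown and 562, 768 and 551 CPM in the controls. Its libraries overlapped between groups, and it passed in none of the comparisons (edgeR, adjusted p = 0.496, 0.723 and 0.594). The fibrillin Fbn1, a scaffold of elastic microfibrils that binds latent TGF-β complexes, had 35.2, 54 and 39.4 CPM in the Fam60a knockdown, 38, 33.8 and 45.1 CPM in the Sin3a knockdown and 12.2, 25.7 and 14.6 CPM in the controls. All 6 knockdown libraries lay above all controls. Fbn1 rose by 1.14 ± 0.3 in the Sin3a knockdown (edgeR, adjusted p = 0.0452), and its 1.29 ± 0.3 in the Fam60a knockdown just missed the threshold (0.0592) and passed with the block (1.31 ± 0.26, 0.0385) and without Sin3a knockdown replicate 3 (1.3 ± 0.28, 0.0152). The Sin3a call was kept in only 2 of the 9 fits without 1 library, those without Sin3a knockdown replicate 3 or control replicate 2 (highest adjusted p of the others = 0.135).

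The second fibrillin, Fbn2, had 2.11, 4.88 and 1.11 CPM in the Fam60a knockdown, 7.47, 12.1 and 9.75 CPM in the Sin3a knockdown and 5.05, 10.8 and 5.81 CPM in the controls. Every Fam60a knockdown library lay below every other library. Without the block none of its differences passed (edgeR, adjusted p = 0.222 for the Fam60a knockdown against control and 0.107 for the Fam60a against the Sin3a knockdown). With the block its difference for the Fam60a against the Sin3a knockdown was -1.92 ± 0.35 and passed (0.0337), and DESeq2 called it too. Vcan, a large chondroitin sulfate proteoglycan, had 29.2, 55.9 and 43.5 CPM in the Fam60a knockdown, 80.2, 118 and 33.3 CPM in the Sin3a knockdown and 59.8, 105 and 72.1 CPM in the controls. All Fam60a knockdown libraries lay below all controls, and its -0.88 ± 0.43 did not pass (0.375; called only with the GC correction and block together among the other fits of all 9 libraries). Without Sin3a knockdown replicate 3 its difference for the Fam60a against the Sin3a knockdown was -1.19 ± 0.31 and passed (0.0404).

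Among the remaining collagens, type VI was the one with a call. Col6a3, whose long α3 chain joins α1 and α2 in microfibrils, had 1.96, 4.36 and 2.85 CPM in the Fam60a knockdown, 0, 0.186 and 0.406 CPM in the Sin3a knockdown and 0.652, 1.88 and 1.49 CPM in the controls. The 3 groups did not overlap. In reads it held 65 in the Fam60a knockdown, 2 in the Sin3a knockdown and 27 in the controls, so that its reads per total were 23.3 times higher in the Fam60a than in the Sin3a knockdown (95% Clopper-Pearson interval 6.19 to 196, counting error only; edgeR, adjusted p = 0.0285). Against the controls, its adjusted p was 0.324 in the Fam60a knockdown, with 0.0564 for the Sin3a knockdown, where controls held 10.1 times more per total (2.54 to 87.7). With the block the fall in the Sin3a knockdown passed (0.0261), as it did without Sin3a knockdown replicate 3 (0.0279). The call between the knockdowns held in only 2 of the 9 fits without 1 library, those without Sin3a knockdown replicate 3 or control replicate 1 (highest adjusted p = 0.111). Col6a2 had 2.27, 4.11 and 1.42 CPM in the Fam60a knockdown, 0.61, 1.3 and 2.03 CPM in the Sin3a knockdown and 2.44, 7.23 and 2.53 CPM in the controls. It did not pass on all libraries (edgeR without the block, 0.754, 0.128 and 0.403).

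The Col6a3 promoter window, shown as that of the collagen called between the knockdowns, covers chr1:90843922-90844221 on the minus strand. It is 56.3% G and C and holds none of the 3 motifs, so it has no capitals.
Col6a3: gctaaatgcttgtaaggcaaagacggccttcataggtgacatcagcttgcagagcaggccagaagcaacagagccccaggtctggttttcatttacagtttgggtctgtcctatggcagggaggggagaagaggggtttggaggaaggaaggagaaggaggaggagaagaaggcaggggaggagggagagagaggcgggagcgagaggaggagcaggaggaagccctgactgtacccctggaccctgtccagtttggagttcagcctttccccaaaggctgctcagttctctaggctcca

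Col9a2, Col8a2 and Col2a1 shared an order of libraries that was noticed after their values were seen. Col9a2, of the type IX collagen that coats type II fibrils, had 9.37, 10.3 and 3 CPM in the Fam60a knockdown, 11.7, 12.1 and 50.4 CPM in the Sin3a knockdown and 47.1, 49 and 48.7 CPM in the controls. Col8a2, of the type VIII collagen of corneal and vascular membranes, had 1.36, 1.92 and 0.632 CPM in the Fam60a knockdown, 0.305, 1.3 and 8.53 CPM in the Sin3a knockdown and 8.47, 8.67 and 9.09 CPM in the controls. Col2a1, the main cartilage fibril chain, had 4.68, 5.52 and 3 CPM in the Fam60a knockdown, 1.52, 3.9 and 28.8 CPM in the Sin3a knockdown and 13.5, 16.9 and 20.3 CPM in the controls. For all 3 genes, 5 of 6 knockdown libraries lay below every control, and the exception was Sin3a knockdown replicate 3. With all libraries none was called by edgeR ( adjusted p in the Fam60a knockdown 0.0599, 0.145 and 0.319; Sin3a knockdown 0.321, 0.27 and 0.648). DESeq2 on all libraries called Col9a2 and Col8a2 in the Fam60a knockdown, and edgeR with the GC correction called Col9a2 there. Without Sin3a knockdown replicate 3 all 3 fell in both knockdowns, Col9a2 by 2.65 ± 0.33 in the Fam60a knockdown (adjusted p = 0.0019) and 2.02 ± 0.38 in the Sin3a knockdown (0.00673), Col8a2 by 2.69 ± 0.42 (0.00384) and 3.48 ± 0.55 (0.00291), and Col2a1 by 1.92 ± 0.34 (0.00625) and 2.66 ± 0.43 (0.00295). In Sin3a knockdown replicate 3 these 3 genes held 124, 21 and 71 reads.

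Type V collagen, a minor fibrillar collagen that sets the width of type I fibrils, differed by chain. Col5a1 had 83.5, 130.2 and 73.7 CPM in the Fam60a knockdown, 125, 141 and 540.3 CPM in the Sin3a knockdown and 62.4, 94.1 and 61.2 CPM in the controls. All Sin3a knockdown libraries lay above all controls, and its 1.87 ± 0.54 did not pass (edgeR, adjusted p = 0.0619) but did without replicate 3 (0.87 ± 0.26, 0.0459). Col5a2 had 15.4, 24 and 25.9 CPM in the Fam60a knockdown, 3.66, 5.57 and 52.8 CPM in the Sin3a knockdown and 2.28, 3.33 and 4.32 CPM in the controls. All Fam60a knockdown libraries lay above all controls, and Sin3a knockdown replicates 1 and 2 were near the controls while replicate 3 was the highest of all. Its 2.71 ± 0.92 in the Fam60a knockdown did not pass (0.171). Without Sin3a knockdown replicate 3 it rose there by 2.72 ± 0.31 (0.00118) and was 2.26 ± 0.35 higher than in the Sin3a knockdown (0.005). Col5a3 had 38.2, 55.3 and 29.3 CPM in the Fam60a knockdown, 6.71, 8.17 and 31.3 CPM in the Sin3a knockdown and 44.5, 72.1 and 48.1 CPM in the controls. All Sin3a knockdown libraries lay below all controls. Its -1.93 ± 0.55 in the Sin3a knockdown did not pass (0.0602), and without replicate 3 it fell by 2.89 ± 0.35 there (0.00106) and was 2.48 ± 0.34 higher in the Fam60a than in the Sin3a knockdown (0.00389).

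**Figure D5:**
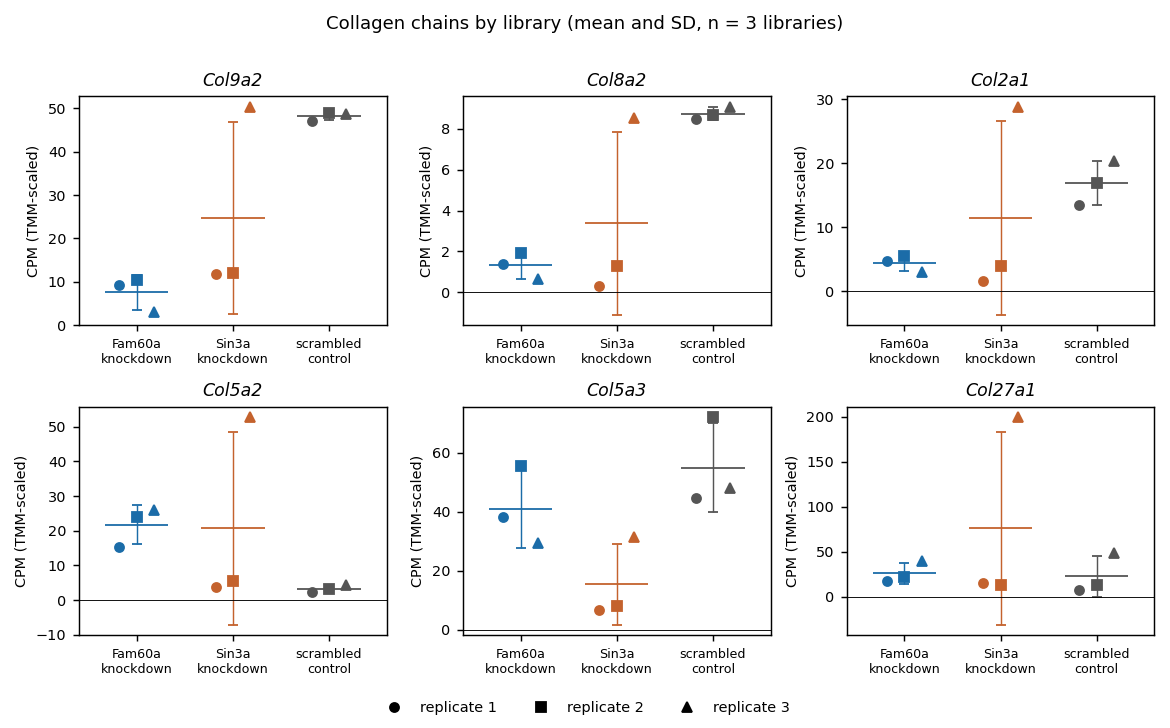
CPM in each library (circle, square and triangle for replicates 1, 2 and 3), with mean and SD (n = 3 libraries per group), for 6 collagen chains. Sin3a knockdown replicate 3 lies far from replicates 1 and 2 in each panel, at 50.4 CPM against 11.7 and 12.1 for Col9a2 and at 199.9 CPM against 14.6 and 13.2 for Col27a1.

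Type I collagen, the main collagen of fibroblasts and bone, rested on single libraries. Col1a1 had 1.81, 3.85 and 0.632 CPM in the Fam60a knockdown, 0.762, 0.743 and 11.4 CPM in the Sin3a knockdown and 7.82, 28.9 and 6.26 CPM in the controls. Col1a2 had 0.755, 1.28 and 1.74 CPM in the Fam60a knockdown, 8.08, 5.76 and 35.3 CPM in the Sin3a knockdown and 0.815, 11.6 and 2.98 CPM in the controls. Control replicate 2 held 200 reads of Col1a1, and 44 of the 58 reads of Col3a1, the type III chain, came from that library. That library also held 12 of 15 reads of Postn, all 4 of Dcn, 2 of 4 of Lum and both of Fap, genes known from fibroblasts. Prrx1 and Twist2 held 0 reads in it and 3 each over the 9 libraries, and Dpt held 0 throughout. A list of 18 fibroblast genes outside the member list summed to 228 CPM in control replicate 2. That was the lowest sum of the 9 libraries, beside 232 and 237 CPM in control replicates 1 and 3. The part of fibroblast RNA in the type I values was not tested. Neither type I chain passed with all libraries (edgeR, adjusted p for Col1a1 0.251 and 0.293, for Col1a2 0.403 and 0.307, in the Fam60a and the Sin3a knockdown against control). Without Sin3a knockdown replicate 3, Col1a1 fell in the Fam60a knockdown (-2.72 ± 0.72, adjusted p = 0.0372) and in the Sin3a knockdown (-4.22 ± 1, 0.0189). On all libraries, DESeq2 called Col1a2 between the knockdowns, as did edgeR with the GC correction and the block together.

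The tail of other chains carried 2 further patterns that turned on Sin3a knockdown replicate 3. Without it, Col7a1, the anchoring fibril collagen of skin, fell by 1.58 ± 0.38 in the Sin3a knockdown (0.0179) and was 2.16 ± 0.38 higher in the Fam60a than in the Sin3a knockdown (0.0087). With it, the same differences were 1.18 ± 1 and -0.61 ± 0.99, and neither passed (edgeR, adjusted p = 0.496 and 0.774). Col7a1 had 23.9, 41.8 and 28.5 CPM in the Fam60a knockdown, 5.03, 9.28 and 134 CPM in the Sin3a knockdown and 14.5, 26.6 and 22.3 CPM in the controls. Col9a3, partner of Col9a2, had 15.4, 16.3 and 8.7 CPM in the Fam60a knockdown, 5.18, 6.5 and 36.2 CPM in the Sin3a knockdown and 14.2, 16 and 10.3 CPM in the controls. Without that library it fell by 1.21 ± 0.33 in the Sin3a knockdown (0.0284), against a difference of 0.17 ± 0.67 with it (0.898), and was 1.22 ± 0.33 higher in the Fam60a than in the Sin3a knockdown (0.0397).

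The other collagens were not called by edgeR on all 9 libraries with or without the block. Under other fits of all 9, DESeq2 called Col22a1, and the GC correction with the block called Col26a1, between the knockdowns. Col11a1, of the type XI collagen inside cartilage fibrils, had 24.9, 32.9 and 68.3 CPM in the Fam60a knockdown, 24.8, 18.9 and 253 CPM in the Sin3a knockdown and 10.8, 18.5 and 33.4 CPM in the controls. The transmembrane collagen Col13a1 had 38.4, 36.1 and 62 CPM in the Fam60a knockdown, 32.5, 25.1 and 197 CPM in the Sin3a knockdown and 22.3, 26.5 and 38.1 CPM in the controls. The fibrillar Col27a1 had 17.1, 21.3 and 39.2 CPM in the Fam60a knockdown, 14.6, 13.2 and 199.9 CPM in the Sin3a knockdown and 7.17, 12.4 and 48.9 CPM in the controls. In these 3 genes replicate 3 was the highest library of each group. Col26a1 had 15, 20.4 and 19.4 CPM in the Fam60a knockdown, 7.01, 5.76 and 19.9 CPM in the Sin3a knockdown and 7.66, 9.83 and 13.9 CPM in the controls. Without Sin3a knockdown replicate 3 it was 1.52 ± 0.3 higher in the Fam60a than in the Sin3a knockdown (edgeR, adjusted p = 0.0115), and Col6a5 was 1.34 ± 0.24 higher (0.00894) and fell in the Sin3a knockdown against control (-1.0 ± 0.24, 0.0181). Col22a1, found at tissue junctions, had 5.44, 6.54 and 2.85 CPM in the Fam60a knockdown, 7.01, 7.24 and 52.4 CPM in the Sin3a knockdown and 10.9, 11.1 and 7.3 CPM in the controls. All Fam60a knockdown libraries lay below all others. Col18a1, whose C-terminal end is endostatin, was the abundant exception, with 352, 388 and 326 CPM in the Fam60a knockdown, 354, 398 and 634 CPM in the Sin3a knockdown and 389, 426 and 388 CPM in the controls (adjusted p = 0.862, 0.561 and 0.36). Group means of Col6a1, Col6a4, Col6a6, Col11a2, Col14a1, Col15a1, Col16a1, Col17a1, Col20a1 and Col23a1 lay between 0.722 and 21.9 CPM.

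By overlap alone, without a fit, 8 members had all Fam60a knockdown libraries above all controls (15.4%, against 16.2% of all genes) and 11 had all below (21.2%, against 18.2%). In the Sin3a knockdown 8 members lay wholly above the controls (15.4%, against 14.7%) and 7 wholly below (13.5%, against 18.5%). Without replicate 3 the same 8 lay above (15.4%, against 27.4% of all genes) and 21 lay below (40.4%, against 28.6%). Between the knockdowns 5 lay wholly higher in the Fam60a knockdown (9.62%, against 13.9%) and 4 wholly lower (7.69%, against 11.6%). Without Sin3a knockdown replicate 3, 20 lay wholly higher there (38.5%, against 24.5%) and 6 wholly lower (11.5%, against 24.9%). With all libraries these shares were near those of all genes. The 21 members below the controls without replicate 3 included the type VI chains Col6a1, Col6a2, Col6a3, Col6a5 and Col6a6.

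Around the structural proteins, some genes that fold and trim collagen were called. Of 26 tested genes for collagen processing and folding, 1 rose in the Fam60a knockdown, where 2.92% of all genes were called. In the Sin3a knockdown 4 fell, where 10.2% of all genes were called. The medians were 0.31 and 0.36 on the log2 scale, beside -0.02 and -0.01 over all genes. The riser was Bmp1, a metalloprotease that removes procollagen C-propeptides and activates lysyl oxidase, with 66.5, 83.8 and 81.3 CPM in the Fam60a knockdown, 38.7, 38.3 and 99.5 CPM in the Sin3a knockdown and 11.9, 18.5 and 28.5 CPM in the controls (1.97 ± 0.43; edgeR, adjusted p = 0.0461). In the Sin3a knockdown its 1.56 ± 0.43 just missed the threshold (0.0515) and passed with the block (0.0167). The 4 that fell in the Sin3a knockdown were Fkbp10, a prolyl isomerase of the endoplasmic reticulum, P3h4, a partner of lysyl hydroxylation, and the C-proteinase enhancers Pcolce2 and Pcolce. Pcolce2 had 55.4, 54.5 and 65.1 CPM in the Fam60a knockdown, 29.6, 24 and 17.9 CPM in the Sin3a knockdown and 69.9, 66.5 and 65 CPM in the controls. It fell by 1.48 ± 0.19 in the Sin3a knockdown (adjusted p = 0.00337) and was 1.28 ± 0.19 higher in the Fam60a than in the Sin3a knockdown (0.0138). Fkbp10 had 73.6, 89.8 and 61.3 CPM in the Fam60a knockdown, 28.5, 27.1 and 27.6 CPM in the Sin3a knockdown and 55.2, 74.9 and 49.5 CPM in the controls. The Sin3a knockdown lay below all other libraries (-1.11 ± 0.2, 0.0122, against control). All 4 were also called higher in the Fam60a than in the Sin3a knockdown, against 3.06% of all genes called. With the replicate block 4 rose in the Fam60a knockdown (6.13% of all genes called), while in the Sin3a knockdown 6 rose and 5 fell (15%). Without Sin3a knockdown replicate 3 the median of the list in the Sin3a knockdown against control was 0.13. In that fit 4 genes of the list rose and 5 fell there (24.5% of all genes called).

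Of 26 tested matrix proteases and inhibitors, 2 rose in the Fam60a knockdown (median 0.18), and 3 rose and 1 fell in the Sin3a knockdown (median -0.14). The shares of all genes called were 2.92% and 10.2%. Adamts7, which cleaves the cartilage protein COMP, had 74.3, 107 and 109 CPM in the Fam60a knockdown, 36.1, 47 and 110.1 CPM in the Sin3a knockdown and 10.6, 16 and 18.2 CPM in the controls. All 6 knockdown libraries lay above all controls (2.69 ± 0.42 in the Fam60a knockdown, edgeR adjusted p = 0.0156; 2.08 ± 0.42 in the Sin3a knockdown, 0.0169). Mmp28, a matrix metalloprotease, had 32, 37.2 and 21 CPM in the Fam60a knockdown, 10.1, 7.98 and 6.91 CPM in the Sin3a knockdown and 7, 9.25 and 11.5 CPM in the controls. It rose in the Fam60a knockdown (1.7 ± 0.3, 0.0218). It was also higher there than in the Sin3a knockdown (1.84 ± 0.3, 0.019). The protease inhibitor Serpine2 had 50.1, 46.5 and 59.6 CPM in the Fam60a knockdown, 108, 115 and 110.5 CPM in the Sin3a knockdown and 26.1, 34.7 and 48.9 CPM in the controls. It rose by 1.6 ± 0.22 in the Sin3a knockdown (0.0043), as did Adamts15 by 1.16 ± 0.29 (0.0353). Adamts4, an aggrecan-cleaving enzyme, fell by 1.16 ± 0.25 (0.023). Between the knockdowns, Adamts4 and Mmp28 were among those higher and Serpine2 was lower in the Fam60a knockdown. With the replicate block, 4 rose in the Fam60a knockdown, 4 rose and 5 fell in the Sin3a knockdown, and 5 were higher and 1 lower in the Fam60a than in the Sin3a knockdown. The shares of all genes called with the block were 6.13%, 15% and 4.65%.

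Several integrin chains were called among the matrix receptors. Of 23 tested, 4 rose and 1 fell in the Fam60a knockdown (median 0.45) and 6 rose and 1 fell in the Sin3a knockdown (median 0.19). On all libraries 0 were called between the knockdowns by edgeR, also with the replicate block (5 at an unadjusted p under 0.05, and 2 called by DESeq2). The shares of all genes called were 2.92%, 10.2% and 3.06%. Without Sin3a knockdown replicate 3, edgeR called 6 receptors between the knockdowns (14.7% of all genes called). Itgb4, Itgb5, Itga7 and Ddr2 were higher and Sdc1 and Itga6 lower in the Fam60a knockdown. Itga3, the integrin α chain that binds laminin-332 and laminins with α5, had 267, 305 and 292 CPM in the Fam60a knockdown, 268, 304 and 309 CPM in the Sin3a knockdown and 144, 197 and 184 CPM in the controls (0.72 ± 0.13 and 0.75 ± 0.13 in the knockdowns against control; adjusted p = 0.028 and 0.0111). Itga8, which pairs with β1 to bind nephronectin and fibronectin, had 47.9, 80.6 and 40 CPM in the Fam60a knockdown, 56.1, 67.2 and 24 CPM in the Sin3a knockdown and 10.4, 15.8 and 6.41 CPM in the controls. It rose by 2.37 ± 0.46 in the Fam60a and 2.19 ± 0.46 in the Sin3a knockdown (0.0332 and 0.0206). Itga4, a fibronectin and VCAM1 receptor chain, rose by 4.01 ± 0.62 in the Fam60a knockdown (0.0154) and by 4.19 ± 0.63 in the Sin3a knockdown (0.0059), and the collagen-binding Itga1 by 3.7 ± 0.51 (0.0108) and 2.24 ± 0.51 (0.0263). Both comparisons use the same controls. In the Fam60a knockdown Itga9 fell by 1.33 ± 0.24 (0.0267), and in the Sin3a knockdown Sdc1 and Sdc4, heparan sulfate carrying syndecans, rose and Itgb7 fell by 1.27 ± 0.21 (0.00878). The α6 integrin (Itga6) and dystroglycan, the receptors best known for laminin-111, had 322 ± 36 and 266 ± 14.1 CPM in the Fam60a knockdown, 378 ± 105 and 274 ± 14.7 CPM in the Sin3a knockdown and 306 ± 25.5 and 279 ± 17.2 CPM in the controls (SD, n = 3 each), and were not called with all libraries. Itga6 had 412, 460.5 and 260 CPM in the Sin3a knockdown. Without replicate 3 of that knockdown, edgeR called it higher there than in the controls and than in the Fam60a knockdown. With the replicate block, 6 receptors rose and 2 fell in each knockdown against control, beside 6.13% of all genes called in the Fam60a and 15% in the Sin3a knockdown. Itgb7 (-0.93 ± 0.21) passed in the Fam60a knockdown with the block (edgeR, adjusted p = 0.0464, against 0.0502 without it).

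Of 40 other tested matrix glycoproteins and proteoglycans, 2 rose and 3 fell in the Fam60a knockdown (median 0.30), 1 rose and 6 fell in the Sin3a knockdown (median -0.41), and 4 were higher in the Fam60a than in the Sin3a knockdown. The shares of all genes called were 2.92%, 10.2% and 3.06%. Fbln5, an elastic fibre protein that binds Loxl1, had 10.4, 12.3 and 10.3 CPM in the Fam60a knockdown, 9.45, 6.87 and 3.25 CPM in the Sin3a knockdown and 1.95, 1.59 and 3.13 CPM in the controls. It rose by 2.3 ± 0.41 in the Fam60a knockdown (edgeR, adjusted p = 0.0244) and 1.59 ± 0.41 in the Sin3a knockdown (0.0425), where the call was lost with the block (0.0594). Efemp2, known as fibulin-4, which brings lysyl oxidase to elastin, had 46.2, 45.2 and 55 CPM in the Fam60a knockdown, 12.7, 10.2 and 16.7 CPM in the Sin3a knockdown and 19.7, 23.7 and 21.9 CPM in the controls. It rose by 1.16 ± 0.21 in the Fam60a knockdown (0.0242) and was 1.91 ± 0.22 higher than in the Sin3a knockdown (0.00632). In the Sin3a knockdown its -0.75 ± 0.22 did not pass (0.0613) and passed with the block (0.0435). Ncan, a proteoglycan of brain matrix, had 0.453, 0.257 and 0.791 CPM in the Fam60a knockdown, 0.915, 0.928 and 0.812 CPM in the Sin3a knockdown and 5.05, 10.6 and 4.62 CPM in the controls. It fell in both (-3.74 ± 0.5 and -2.88 ± 0.49; adjusted p = 0.0106 and 0.00927). Tgfbi, Ltbp3, Emilin1, Fbln2 and Mfap4 also fell in the Sin3a knockdown, Tgfbi to 21.7 ± 9.91 CPM there, against 97.6 ± 11.6 CPM in the controls (adjusted p = 0.00927). Mfap4 held 2 reads in that knockdown and 52 in the controls, and the call of Emilin1 was lost with the block (0.0577). Fras1 and Frem1, of the epithelial basement membrane complex that anchors skin, fell in the Fam60a knockdown to 0.999 ± 0.318 and 0.37 ± 0.25 CPM there, against 2.97 ± 0.359 and 2.25 ± 0.785 CPM in the controls (0.0493 and 0.0378). With the replicate block, 5 of the list rose and 6 fell in the Fam60a knockdown, 2 rose and 8 fell in the Sin3a knockdown, and 5 were higher and 1 lower in the Fam60a than in the Sin3a knockdown. The shares of all genes called with the block were 6.13%, 15% and 4.65%. The call of Mfap4 between the knockdowns was lost with the block (edgeR, adjusted p = 0.0618, against 0.0462).

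Calls among markers of other matrix-producing cells were few, mixed for fibroblast genes and downward against control for smooth muscle and endothelial genes. Of 18 fibroblast genes outside the member list, 9 were tested. S100a4 and Tbx18 rose in the Fam60a knockdown, Vim and Twist1 rose and Thy1 fell in the Sin3a knockdown, and their sum was 271 to 281 CPM in the Fam60a knockdown, 284 to 430 CPM in the Sin3a knockdown and 228 to 237 CPM in the controls. Of 6 tested smooth muscle genes, Cnn1 alone was called on all libraries, down in the Sin3a knockdown. The list summed to 162 to 184 CPM in the Fam60a knockdown, 140 to 235 CPM in the Sin3a knockdown and 157 to 181 CPM in the controls. The 6 tested genes had a median log2 difference of -1.07 in the Fam60a and -0.50 in the Sin3a knockdown. At an unadjusted p under 0.05 (edgeR) 4 and 2 of them lay there, against 15.7% and 25.9% of all genes. Without Sin3a knockdown replicate 3, edgeR called Tagln and Acta2 lower in the Fam60a knockdown (16.9% of all genes called). In the Sin3a knockdown it called Cnn1, Des and Tagln lower (24.5%). Of 9 tested endothelial genes, Vwf fell in both knockdowns, to 9.62 ± 3.4 CPM in the Fam60a knockdown and 8.84 ± 5.47 CPM in the Sin3a knockdown, against 71.5 ± 4.83 CPM in the controls (edgeR, adjusted p = 0.0112 and 0.00435), and Pecam1 and Sox18 fell in the Sin3a knockdown. The sums were 164 to 240 CPM in the Fam60a knockdown, 164 to 180 CPM in the Sin3a knockdown and 268 to 358 CPM in the controls. Of all genes, 2.92% were called in the Fam60a and 10.2% in the Sin3a knockdown against control. The part of these cell type markers in the matrix values was not tested.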

How the data were processed

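Total RNA of 9 libraries, 3 per group, was sequenced as 50-base single ends from stranded TruSeq libraries, per the labels' protocols. The authors deposited raw counts of reads per Ensembl gene, made with STAR 2.4.0j, Picard and featureCounts of Subread per the submitters' processing notes, from alignments with duplicates removed per the file headers; build and annotation are not given in the sources used here. Gene IDs were matched to GENCODE M21 on GRCm38 (32937 of 37990) for symbols, exon lengths and positions, and 54 of 54 members had an exon GC content.

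Counts were fitted in edgeR 4.0.16 (R 4.3.3, limma 3.58.1) with filterByExpr, TMM scaling and robust quasi-likelihood F-tests on all 9 libraries as 3 groups, with Benjamini-Hochberg adjustment over 14465 genes and calls at 0.05. Fold changes are log2 with SE, and the biological coefficient of variation was 0.25. A count of 0 is read as at most 3 counts, and intervals and floors cover counting error only. DESeq2 1.42.0, RLE scaling, other filters, a GC correction, a replicate block, single libraries left out and fits on 6 libraries were alternatives. The labels call the libraries biological replicates; p-values measure the spread between them. Same-numbered libraries of different groups deviated together (across genes, r was 0.178 to 0.622 for all 9 same-number pairs and -0.448 to 0.113 for different numbers), so blocked results are given for the described members whose calls they change, and as counts for the matrix lists.

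Named are Loxl4, Col4a1 and Lama1, every member called, the 8 highest per kb, the type I and IV collagens, Lama1, Lama5, Lamb1, Lamb2, Lamc1, the nidogens, Fn1, Sparc, Hspg2, Agrn, the lysyl oxidases, the 4 uncalled members per direction with the smallest p in each knockdown, and up to 4 called genes per direction of each list; others were named after their values were seen. Members and lists were chosen with earlier results of these data known. Of the list entries, 2 symbols were not found. Some genes that entered the counts are not reported here.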

Additional observations from a re-analysis of the deposited data

How the results depend on the processing

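The counts of members called depended on the fit. For the Fam60a knockdown against control (1 called), the Sin3a knockdown against control (4) and the Fam60a against the Sin3a knockdown (2), RLE scaling and a filter of 1 CPM gave 1, 4 and 2, and no filter gave 2, 4 and 2. The replicate block gave 4, 13 and 4 (7.69%, 25% and 7.69% of the members tested, against 6.13%, 15% and 4.65% of all genes tested). The GC correction gave 5, 9 and 4 (9.62%, 17.3% and 7.69%, against 5.05%, 14.6% and 5.61%). Both together gave 15, 18 and 11 (28.8%, 34.6% and 21.2%, against 11.7%, 23.2% and 10.9%). Fits of only the 6 libraries compared gave 11, 1 and 0 (21.2%, 2% and 0%, against 12.8%, 5.25% and 0%). In the last of these, 9 members had an unadjusted p under 0.05 in edgeR. DESeq2 gave 8, 13 and 7 (16.7%, 27.1% and 14.6%, against 6.79%, 14.7% and 8.08%). Leaving out 1 library gave 0 to 12, 1 to 15 and 0 to 14, with each highest count without Sin3a knockdown replicate 3. Chosen after the data were seen, leaving out the replicate 3 libraries of all groups gave 18, 20 and 13 (34%, 37.7% and 24.5%, against 16.9%, 30.4% and 19.2%). The block without Sin3a knockdown library 3, also chosen then, gave 34, 34 and 28 (64.2%, 64.2% and 52.8%, against 39.6%, 47.3% and 36.1%). The cause of these differences was not tested.

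Among the 106 gene results followed through every fit, directions reversed for 4 members. Members outside that set were not followed singly. For the Sin3a knockdown against control, 32 of 52 members had a positive difference with all libraries. Without Sin3a knockdown replicate 3, 21 of 53 had one. For the Fam60a against the Sin3a knockdown these counts were 18 of 52 and 33 of 53. For the Sin3a knockdown against control, Col7a1 (1.18 with all libraries) was -1.53 without the replicate 3 libraries and -1.58 with the block and library 3 out, with -1.58 to 1.76 over single libraries left out, and Col9a3 (0.17) was -0.07 with the block, -0.08 with the GC correction, -0.18 with both, -1.36 and -1.41 in the settings without replicate 3, and -1.21 to 0.63 over single libraries. For the Fam60a against the Sin3a knockdown, Col7a1 (-0.61) was 0.31 with the block, 0.45 with GC correction and block, 2.23 and 2.16 without replicate 3, and -1.17 to 2.16 over single libraries. Col9a3 (-0.17) was 0.09, 0.08 and 0.18 with the block, the GC correction and both, 1.45 and 1.41 without replicate 3, and -0.61 to 1.22. Over single libraries Col5a2 ranged over -0.38 to 2.26 and Lamb2 over -0.08 to 1.08. Every list gene called in the Fam60a knockdown against control lost its call in at least 1 fit without 1 library. The highest adjusted p (edgeR) ran from 0.0551 for Ncan to 0.198 for Fras1, with 0.0896 for Itga4. In the Sin3a knockdown against control some list calls were kept in all such fits, as for Pcolce2 (highest 0.0202). Others were lost, as for Fbln5 (0.148).

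Depth limits the low members: the floor of 3 counts is 0.385 to 0.557 CPM in 8 libraries and 1.22 CPM in Sin3a knockdown replicate 3.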
